A study of Mus musculus with 6 samples.

Results

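Nccrp1 and its 5 F-box relatives Fbxo2, Fbxo6, Fbxo17, Fbxo27 and Fbxo44 were followed in midbrain RNA of a mouse line made for translating ribosome affinity purification (TRAP). The 6 genes were picked by symbol from 32531 gene entries, and all 6 were among the 17197 genes that passed a filter on low counts. Nccrp1 was picked because it stood among the largest differences between IP and input libraries in earlier results from these files, so its own difference is given as a description and not tested. Its relatives were picked by family and not by their values. The mice were adult, untreated animals of the Lhx5-EGFP/Rpl10a line DT154, in which ribosomes are tagged with Rpl10a, a protein of the large subunit, fused to EGFP in cells where regulatory sequences of Lhx5 are active. All 6 libraries came from this line: 3 held RNA of polysomes immunopurified from dissected midbrain with anti-EGFP antibodies (IP), and 3 are titled Input, although another label calls them unbound. The labels do not name the tagged cells, and they do not say whether replicates were separate or pooled animals, so the p-values below cover only the spread between these libraries, which may be technical.

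F-box proteins are the interchangeable substrate receptors of SCF ubiquitin ligases: the F-box docks on Skp1, Skp1 on the cullin Cul1, and Cul1 carries the RING subunit Rbx1 that recruits a ubiquitin-conjugating enzyme. The family described here shares a C-terminal FBA (F-box associated) domain, which in Fbxo2, Fbxo6 and Fbxo27 binds the mannose-rich sugar chains of N-glycosylated proteins. Such chains are normally hidden inside the endoplasmic reticulum (ER) and become visible in the cytosol when misfolded glycoproteins are pulled out for destruction (ER-associated degradation) or when lysosomes break. Fbxo2 is best known from neurons. Nccrp1, also called Fbxo50, has the FBA domain without an F-box and is best known from stratified epithelia.

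The genes lie in clusters (GENCODE M21, GRCm38, also called mm10). Fbxo6 (chr4:148145716-148152140, minus strand), Fbxo44 (chr4:148152800-148160482, minus strand) and Fbxo2 (chr4:148160621-148166424, plus strand) are neighbours on chromosome 4. Fbxo44 and Fbxo2 point away from each other and 138 bases separate their spans. Nccrp1 (chr7:28543596-28547254, minus strand), Fbxo27 (chr7:28692849-28699338, plus strand) and Fbxo17 (chr7:28716804-28738144, plus strand) are on chromosome 7, with 145.6 kb between Nccrp1 and Fbxo27 and 17.5 kb between Fbxo27 and Fbxo17. All 6 are protein-coding, and none shares an exon base with another annotated gene. The proteins, translated from the longest annotated coding sequence of each gene, have 276 to 297 residues. In pairwise alignments Fbxo17 and Fbxo27 were 59.6% identical, Fbxo6 and Fbxo44 57.1%, and the least alike of the 5 relatives, Fbxo17 and Fbxo44, 35.4%. Nccrp1 was 30.0% to 34.8% identical to each of the others, just below that last pair at its highest. Of 205 alignment columns filled in all 6 proteins, 25 held the same residue throughout.

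The best conserved run of 20 codons is shown. It was picked for the most residues shared by all 6 proteins, so its agreement cannot place Nccrp1 within the family. It is coding DNA, 5′ to 3′ on the gene's own strand, and codons in capitals encode the residue shared by all 6 proteins (6 of 20). Each run lies within 1 coding exon, at codons 169 to 188 of Nccrp1 (chr7:28545271-28545330) and 180 to 199 of Fbxo2 (chr4:148165032-148165091), and in the others at chr4:148146872-148146931 (Fbxo6), chr7:28735281-28735340 (Fbxo17), chr7:28695010-28695069 (Fbxo27) and chr4:148156427-148156486 (Fbxo44).
Nccrp1: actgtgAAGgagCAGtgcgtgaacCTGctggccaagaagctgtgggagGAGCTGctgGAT
Fbxo2: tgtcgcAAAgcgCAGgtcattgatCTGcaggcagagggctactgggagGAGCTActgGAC
Fbxo6: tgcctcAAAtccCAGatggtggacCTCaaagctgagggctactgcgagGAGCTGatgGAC
Fbxo44: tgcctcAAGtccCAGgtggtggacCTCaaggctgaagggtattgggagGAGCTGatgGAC
Fbxo27: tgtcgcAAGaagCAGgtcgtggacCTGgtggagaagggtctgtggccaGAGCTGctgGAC
Fbxo17: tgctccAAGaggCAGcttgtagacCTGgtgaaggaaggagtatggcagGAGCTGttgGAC
The relatives differ from Nccrp1 at many codons even here. The longest exact stretch that transcripts of any 2 members share was 25 bases, between Fbxo6 and Fbxo44, and the other 14 pairs shared at most 17.

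Levels are given as CPM, read counts scaled to library size. Lhx5, the gene that gives the line its name, had 46.8 to 56.0 CPM in IP and 2.20 to 3.92 in input. Gene totals ran from 38058239 to 45841499 counts, at which 3 counts are 0.0688 to 0.0741 CPM, a floor that covers counting error only and lies well under all member values. Reads that matched more than 1 gene made up 1.59% to 1.68% of each IP file and 8.03% to 10.9% of each input file, and reads with several alignments 43.8% to 44.5% and 31.8% to 33.0%. Their part in the members' values was not tested. Over all genes, replicate 3 differed most from the other libraries in both groups. Count differences, as a chi-square per gene, were 77.8 and 79.3 between IP replicate 3 and IP replicates 1 and 2. Between IP replicates 1 and 2 the value was 30.1. In input the values were 72.8 and 64.3 with replicate 3, and 25.6 between replicates 1 and 2. The cause was not tested. By summed marker levels, a pair of libraries stood apart from the rest of their group. IP replicate 2 had a summed level of 4 Purkinje cell markers of 1191 CPM, against 235 and 177 in IP replicates 1 and 3 and 264 to 417 in input. Single markers differed within input. Pcp2 was highest in input replicate 2 (3.03 CPM, against 0.505 and 0.296), as was Car8 (53.1 CPM, against 23.9 and 19.1). Calb1 and Itpr1 were highest in input replicate 3, at 126.5 and 271.5 CPM. Input replicate 3 had 714 CPM over 5 striatal markers and 1362 CPM over 5 choroid plexus markers, against 52.0 to 124 and 18.9 to 369 in the other input libraries.

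Nccrp1 was far more abundant in the IP libraries than in input. IP replicates 1, 2 and 3 had 19.4, 9.79 and 27.6 CPM of Nccrp1, from 811, 401 and 1184 reads. Input replicates 1, 2 and 3 had 3.44, 0.917 and 0.667 CPM, from 143, 40 and 27 reads. Every IP library thus lay above every input library, as for 30.7% of all genes tested. The lowest IP value was 2.85 times the highest input value. The fitted difference was 11.3-fold, a log2 fold change of 3.50 (SE 0.63), and it placed Nccrp1 at rank 20 from the top of 17197 genes.

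The spread between libraries was wider than for any of the relatives. Within IP the highest Nccrp1 value was 2.82 times the lowest, and within input 5.16 times, with coefficients of variation of 47.1% and 91.6%. An IP and an input library with the same number also share a lane label, and the log2 ratios of these pairs were 2.50, 3.42 and 5.37. Input replicate 1 held most of the input signal, and without it the difference was 23.8-fold (log2 fold change 4.58). Leaving out any other single library gave between 8.46-fold (without input replicate 3) and 13.6-fold (without IP replicate 2).

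IP replicate 2, the library rich in Purkinje cell markers, was the lowest of the IP libraries in Nccrp1, and input replicate 3, rich in striatal and choroid plexus markers, the lowest of all. The part of their makeup in the Nccrp1 values was not tested. With both libraries left out, and input replicate 2 kept, the difference was 10.4-fold. The 6 epithelial markers (Krt5, Krt14, Krt13, Krt4, Dsg3 and Sprr1a) summed to 0.0700 to 0.195 CPM in IP and 0.222 to 0.642 in input. These sums rest on 3 to 8 reads per IP library and 9 to 28 per input library over the 6 genes, too few for a test.

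**Figure D1:**
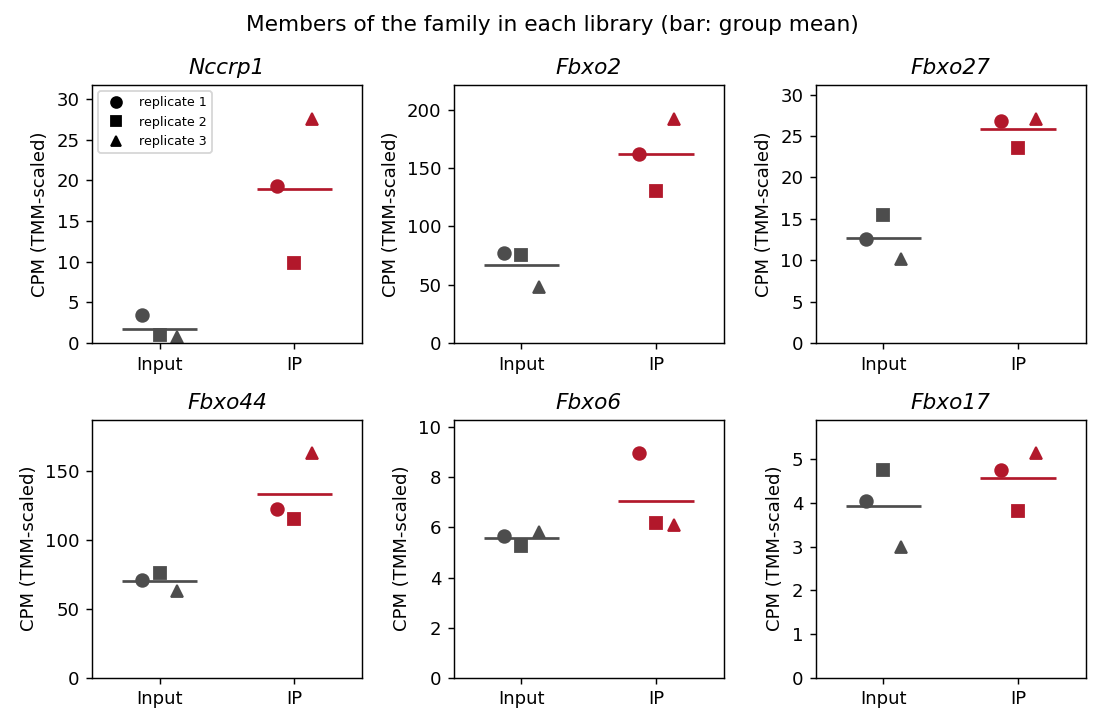
Level of each gene in CPM, scaled by TMM, in the 3 input (grey) and 3 IP (red) libraries. Symbols mark the replicate number and bars the group means. Nccrp1, Fbxo2, Fbxo27 and Fbxo44 show IP values well above input, Fbxo6 is separated by a small margin, and the Fbxo17 groups overlap.

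Among the 5 relatives, Fbxo2, Fbxo27 and Fbxo44 were higher in IP and none was lower. That is 3 of 5 called at an adjusted p under 0.05, where 26.0% of all 17197 genes tested were called higher in IP and 27.9% lower, 53.9% in either direction. The median log2 fold change of the 5 was 0.93, against -0.01 over all genes tested. With 5 genes, that share was not compared further.

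Fbxo2, the neuronal receptor for mannose-rich glycoproteins, rose 2.43-fold, a log2 fold change of 1.28 (SE 0.21), with an adjusted p of 0.00127 (quasi-likelihood test of edgeR, adjusted by Benjamini-Hochberg over all genes, as for every adjusted p below). It had 162, 131 and 192 CPM in IP replicates 1, 2 and 3, and 76.9, 75.1 and 47.7 CPM in input replicates 1, 2 and 3. All IP values lay above all input values, as for 30.7% of all genes tested, and the lowest value was that of input replicate 3. The 5 neuronal markers Snap25, Syt1, Rbfox3, Elavl3 and Tubb3, none of them at 0, summed to 16740 to 21300 CPM in IP and 7656 to 10950 in input, with the lowest sum in input replicate 3 as well. Snap25 made up most of that sum, and the other 4 markers summed to 1293 to 1551 CPM in IP and 1222 to 1432 in input, which overlap. Of the 5 markers Snap25, Rbfox3 and Tubb3 were called higher, by log2 fold changes of 1.10, 0.47 and 1.07, whereas Syt1 at -0.17 and Elavl3 at 0.03 were not called. All 6 astrocyte and all 6 oligodendrocyte markers were called lower, with sums of 111 to 166 against 1024 to 1368 CPM for astrocytes. The part of these marker differences in the values of Fbxo2 and its relatives was not tested. In such bulk libraries, more cells of a type and more RNA per cell cannot be told apart.

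Fbxo44, whose GENCODE start lies back to back with that of Fbxo2, rose by 0.93 (SE 0.15, adjusted p 0.00128). The IP replicates had 123, 115 and 163 CPM of Fbxo44 and the input replicates 71.0, 76.0 and 62.8. Here too all IP values lay above all input values, as for 30.7% of all genes tested. IP replicate 3 was highest and input replicate 3 lowest, as for Fbxo2. Fbxo44 has the FBA domain but is the relative for which binding to sugars has been hardest to show.

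Fbxo6, the third gene of the cluster and a receptor of mannose-rich chains like Fbxo2, did not pass. IP replicates 1, 2 and 3 had 8.96, 6.18 and 6.09 CPM of Fbxo6, and the input replicates had 5.65, 5.25 and 5.83. The IP values all lay above the input values, as they did for 30.7% of all genes tested, but 2 of them by a small margin. The log2 fold change was 0.34 (SE 0.22, adjusted p 0.211), and the same-lane ratios were 0.67, 0.23 and 0.06.

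The 138 bases between the GENCODE spans of Fbxo44 and Fbxo2 are shown because both genes were higher in IP (plus strand, chr4:148160483-148160620, GRCm38.p6). Their letters were cut from the RefSeq promoter window of Fbxo2 (chr4:148160418-148160717). Capitals mark GGGCGG, the GC box, searched on both strands.
Fbxo44-Fbxo2: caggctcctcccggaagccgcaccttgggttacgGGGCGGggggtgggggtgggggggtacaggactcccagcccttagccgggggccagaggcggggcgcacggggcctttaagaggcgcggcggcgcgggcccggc
This stretch was 77.5% G and C and held 1 GC box, a motif found in 35.6% of 32817 promoter windows of 300 bases. The median window was 52.7% G and C. A stretch of 138 bases is not like for like with such windows. The 300-base window of Fbxo2 was 69.0% G and C, more than 88.9% of windows, with 1 GC box. Those of Fbxo44 were 57.0%, 68.0% and 65.3%, with 0, 0 and 3 GC boxes. These Fbxo44 windows, set by RefSeq starts, end at chr4:148160344 or before it, so they cover none of the stretch shown.

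Fbxo27, a receptor that marks glycoproteins exposed on damaged lysosomes, rose by 1.02 (SE 0.18, adjusted p 0.00155), or 2.03-fold. It had 26.8, 23.6 and 27.1 CPM in the IP replicates and 12.6, 15.4 and 10.1 in the input replicates. These IP values were the most even of the family, with a coefficient of variation of 7.55%.

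Fbxo17, the closest relative of Fbxo27 by sequence and position, did not pass. The IP replicates had 4.76, 3.81 and 5.13 CPM of Fbxo17 and the input replicates 4.04, 4.75 and 2.99. The groups overlapped, the log2 fold change was 0.22 (SE 0.26, adjusted p 0.500), and the ratio in the lane of replicate 2 pointed the other way (-0.32). Fbxo17 rested on 156 to 220 reads in IP and 121 to 207 in input. The difference between the 2 fold changes was not tested.

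The 250 bases upstream of the first RefSeq start of each gene are shown to compare this neighbouring pair, with GC boxes in capitals (plus strand, GRCm38.p6, chr7:28692599-28692848 for Fbxo27 and chr7:28716532-28716781 for Fbxo17).
Fbxo27: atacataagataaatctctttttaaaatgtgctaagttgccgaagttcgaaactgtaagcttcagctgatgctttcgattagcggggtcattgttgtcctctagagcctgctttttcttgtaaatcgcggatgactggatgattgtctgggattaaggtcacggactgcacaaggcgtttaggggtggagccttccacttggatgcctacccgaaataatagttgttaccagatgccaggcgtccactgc
Fbxo17: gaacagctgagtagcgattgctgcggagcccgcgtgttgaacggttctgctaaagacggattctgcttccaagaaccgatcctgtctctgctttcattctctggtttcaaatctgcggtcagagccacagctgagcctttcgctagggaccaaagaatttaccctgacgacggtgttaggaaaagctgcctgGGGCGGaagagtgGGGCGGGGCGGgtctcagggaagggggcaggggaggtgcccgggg
The Fbxo27 stretch was 45.6% G and C with 0 GC boxes, and the Fbxo17 stretch 58.4% with 3. Over all RefSeq starts, the promoter windows of Fbxo27 were 46.3%, 55.0%, 58.7% and 60.0% G and C. Those of Fbxo17 were 59.3% and 60.7%. The G and C gap between this pair thus varied with the start chosen. Every Fbxo27 window held 0 GC boxes, and each Fbxo17 window held 3. RefSeq start windows for the 5 relatives held 0 matches to TAATTA, a homeodomain core sequence present in 5.30% of all windows, on either strand. These matches describe the letters in the windows only.

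Per length, Fbxo2 was the main transcript of the family in both groups. Levels of different genes were compared as CPM per kb of annotated exon. In IP, Fbxo2 stood at 125 ± 24.0, Fbxo44 at 44.1 ± 8.51, Nccrp1 at 12.4 ± 5.83, Fbxo27 at 8.44 ± 0.637, Fbxo6 at 3.21 ± 0.740 and Fbxo17 at 1.83 ± 0.273 CPM per kb (SD, n = 3). Nccrp1 and Fbxo27 overlapped in that order, and Nccrp1 was below Fbxo27 in IP replicate 2 (6.40 against 7.70). The other neighbours in the order did not overlap between libraries.

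In input the order was Fbxo2 at 51.7 ± 12.7, Fbxo44 at 23.1 ± 2.21, Fbxo27 at 4.15 ± 0.868, Fbxo6 at 2.53 ± 0.134, Fbxo17 at 1.57 ± 0.354 and Nccrp1 at 1.09 ± 1.001 CPM per kb (SD, n = 3). Nccrp1 thus stood last in input and below only Fbxo2 and Fbxo44 in IP by its mean, although its input values (0.435 to 2.25) overlapped those of Fbxo17 (1.20 to 1.90). The other neighbours in the input order did not overlap. Of the family's summed level per length, Nccrp1 made up 6.09% ± 1.85 in IP and 1.23% ± 1.01 in input, and Fbxo2 64.3% ± 0.681 and 60.9% ± 3.75 (SD, n = 3 each). The sum over the 6 genes was 195 ± 38.6 CPM per kb in IP and 84.1 ± 16.2 in input. Genes with many annotated transcripts, such as Fbxo44 with 10, have a longer summed exon length than any 1 transcript, which lowers their level on this scale.

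**Figure D2:**
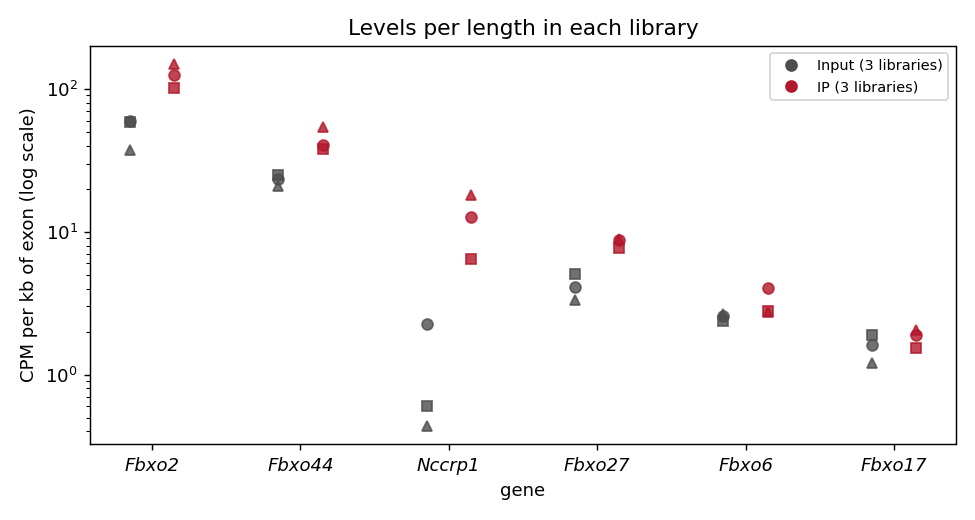
CPM per kb of annotated exon for each gene on a log axis, with 1 symbol per library (grey input, red IP; circles, squares and triangles are replicates 1, 2 and 3). Fbxo2 and Fbxo44 lead in every library, and Nccrp1 shows the widest gap between groups.

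Other genes around the members were too few to set against the 26.0% called higher and 27.9% called lower over all genes. Within 100 kb of the chromosome 4 cluster 5 other genes were tested, of which 2 were called higher and 0 lower. Agtrap, an angiotensin receptor regulator, rose by 0.98 (SE 0.28) and Mad2l2, a DNA repair subunit, by 0.42 (SE 0.15). Around Nccrp1 3 genes were tested. Samd4b, an RNA-binding protein gene on the same strand with 1 annotated transcript that runs across Nccrp1 in an intron, had 86.1 ± 15.1 CPM in the IP libraries and 77.5 ± 7.56 in the input libraries (SD, n = 3 each; log2 fold change 0.15, SE 0.15, adjusted p 0.410). Lrfn1, a synaptic adhesion protein gene, rose by 0.77 (SE 0.21), and Pak4, a kinase gene, was at -0.70 (SE 0.28, adjusted p 0.0601). Around Fbxo27 and Fbxo17, 3 of 11 tested genes were higher and 3 lower. The nearest tested gene beyond Fbxo17, the mitochondrial ribosomal protein gene Mrps12, rose by 1.46 (SE 0.13).

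Other F-box genes were about as often called higher as genes at large. Of 79 other F-box genes in the files 62 were tested, and 16 were called higher (25.8%), 12 lower (19.4%) and 34 neither, with a median log2 fold change of 0.22. Over all genes the shares were 26.0% and 27.9%. Fbxo9, Fbxo3 and Fbxo11, the most abundant of the higher ones, rose by 1.42 (SE 0.19), 0.45 (SE 0.10) and 0.56 (SE 0.11). Fbxl5, the iron-sensing receptor, fell by 0.72 (SE 0.11). Among 68 tested genes, the F-box genes with Nccrp1 counted in, Fbxo2 ranked 5, Fbxo27 7, Fbxo44 8, Fbxo6 25 and Fbxo17 37 by log2 fold change. Nccrp1 ranked 1, but it was chosen for its difference in this same contrast, so its rank is not a finding. The nearest below Nccrp1 was Fbxo47 at 1.70 (SE 0.40), named after its value was seen.

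Genes of the SCF ligase that F-box proteins plug into, and of its regulators, were mostly higher in IP. The 26 tested genes cover its core (Skp1a, Cul1 and Rbx1), ubiquitin-conjugating enzymes, NEDD8 modification and the COP9 signalosome that removes NEDD8. Cand1, Cand2 and Glmn are also among them. Of the 26, 21 were called higher (80.8%), 0 lower and 5 neither, beside 26.0% higher and 27.9% lower over all genes. Their median log2 fold change was 0.52, against -0.01 over all genes. The adaptor gene Skp1a rose by 0.77 (SE 0.12), from 288 ± 26.8 to 490 ± 50.6 CPM, and the RING subunit gene Rbx1 by 0.996 (SE 0.11), from 163 ± 9.68 to 325 ± 31.9 (SD, n = 3 each). The signalosome gene Cops2 rose by 0.41 (SE 0.10). The scaffold gene Cul1, named for its role after its value was seen, rose by 0.30 (SE 0.11, adjusted p 0.0485). Without IP replicate 2 and input replicate 3, 18 of the 26 were higher and 0 lower, and with upper-quartile scaling 16 were higher and 1 lower. Of the 5 neuronal markers given above 3 were called higher too, and their part in these counts was not tested.

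Genes of ER-associated degradation were more often called higher than lower. Of 48 tested, 20 were called higher (41.7%), 4 lower (8.33%) and 24 neither, with a median log2 fold change of 0.37, beside 26.0% higher, 27.9% lower and a median of -0.01 over all genes. The ER-bound conjugating enzyme gene Ube2j1 rose by 0.86 (SE 0.14), the conjugating enzyme gene Ube2k by 0.38 (SE 0.10) and the ubiquitin shuttle gene Ubqln1 by 0.36 (SE 0.10). The deubiquitinase gene Atxn3 fell by 0.50 (SE 0.11), and Edem1, which hands mannose-trimmed glycoproteins to the degradation machinery, fell by 0.70 (SE 0.16). Without IP replicate 2 and input replicate 3, 14 were higher and 4 lower. Without IP replicate 3 alone, 26 were higher and 4 lower.

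Enzymes and lectins that trim and read N-glycans inside the ER and Golgi showed no common direction. Of 20 tested 3 were called higher and 3 lower (15% each), beside 26.0% higher and 27.9% lower over all genes. Their median was 0.12. The glucosidase gene Mogs rose by 0.999 (SE 0.25), Mgat1, which starts complex glycans, by 0.75 (SE 0.17), and the ER lectin gene Mlec by 0.44 (SE 0.15). The folding sensor gene Uggt2 fell by 0.41 (SE 0.14) and the mannosidase gene Man1a by 0.68 (SE 0.25). These counts moved with single libraries: 1 was higher without IP replicate 2 and 8 without IP replicate 3, and 1 was lower when IP replicate 2, IP replicate 3 or input replicate 1 was left out. Without IP replicate 2 and input replicate 3 together 0 were higher and 1 was lower, and with the replicate number as a block 7 were higher.

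Of 6 genes whose proteins have been reported as targets of Fbxo2, 1 was called lower and 0 higher by edgeR. Over all genes 27.9% were called lower and 26.0% higher, and 6 genes are too few to set against those shares. The insulin receptor gene Insr fell by 0.72 (SE 0.16), from 80.5, 85.1 and 68.3 CPM in the input replicates to 52.7, 52.2 and 37.4 in the IP replicates. Its IP values all lay below its input values, an order whose share over all genes was not counted. The NMDA receptor subunit gene Grin1 had 205, 170 and 120 CPM in the IP replicates and 124, 126 and 89.6 in the input replicates, with a log2 fold change of 0.54 (SE 0.21, unadjusted p 0.0302, adjusted p 0.0550). Grin2a, Itgb1, Bace1 and App lay between -0.56 and 0.36. DESeq2 called 1 higher and 2 lower, and the fit with the replicate number as a block called 3 higher and 3 lower. Without IP replicate 3, 2 were higher, and without IP replicate 1, or without input replicate 3, 2 were lower.

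**Figure D3:**
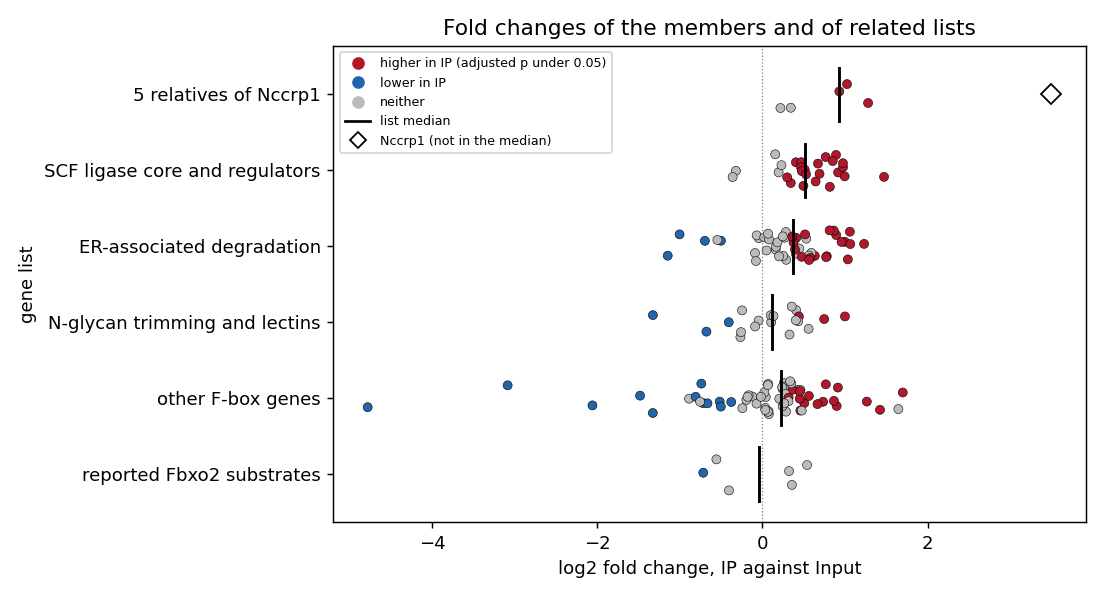
Log2 fold change of IP against input for each tested gene of 6 lists, 1 point per gene, with the list median as a black line. Red and blue points were called higher and lower at an adjusted p under 0.05, and the open diamond is Nccrp1 at 3.50, which is not in the median. The points of the SCF list lie mostly to the right of 0, and the N-glycan list is spread around it.

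The genes whose pattern over the libraries was most like that of Nccrp1 differed less between the groups, with log2 fold changes from 0.47 to 1.04. Pearson's r over the 6 libraries was computed on log2 CPM against 9565 genes whose log2 CPM averaged 3 or more, and the libraries share depth and the split into IP and input. The nearest were Adssl1 (0.9960), Uap1 (0.9956), Cacfd1 (0.9939), Mrps15 (0.9931) and Alkbh6 (0.9926). Uap1, which makes the sugar donor UDP-N-acetylglucosamine, had 77.5, 68.7 and 83.0 CPM in the IP replicates and 63.1, 52.3 and 49.9 in the input replicates. It ranked the 6 libraries in the same order as Nccrp1, with input replicate 1 highest in input and IP replicate 2 lowest in IP. Its log2 fold change was 0.47 (SE 0.13), against 3.50 for Nccrp1. Adssl1, Cacfd1 and Mrps15 ranked the libraries in that order too, so it is not particular to Uap1. These genes were picked for the highest r of 9565, so the size of r is not a finding. The genes nearest to Fbxo2 were Fam57b (0.9993), Ndufaf2 (0.9993), Ranbp9 (0.9990), Pigq (0.9989) and Grip2 (0.9983), with log2 fold changes from 0.53 to 1.57.

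Calls for the 5 relatives were the same under each alternative run. Fbxo2 stood between 1.06 and 1.40 on the log2 scale, Fbxo27 between 0.86 and 1.19 and Fbxo44 between 0.77 and 1.002, and each remained called. Fbxo6 stood between 0.15 and 0.45 and Fbxo17 between 0.03 and 0.38, and neither was called. Without IP replicate 2 and input replicate 3, Fbxo2 stood at 1.17, Fbxo27 at 0.90 and Fbxo44 at 0.90. With upper-quartile scaling the median of all genes moved from -0.01 to -0.17, and 38.1% of calls were upward in place of 48.2%. Nccrp1 stood at 3.35 and Fbxo44 at 0.78 there, both above that median.

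**Figure D4:**
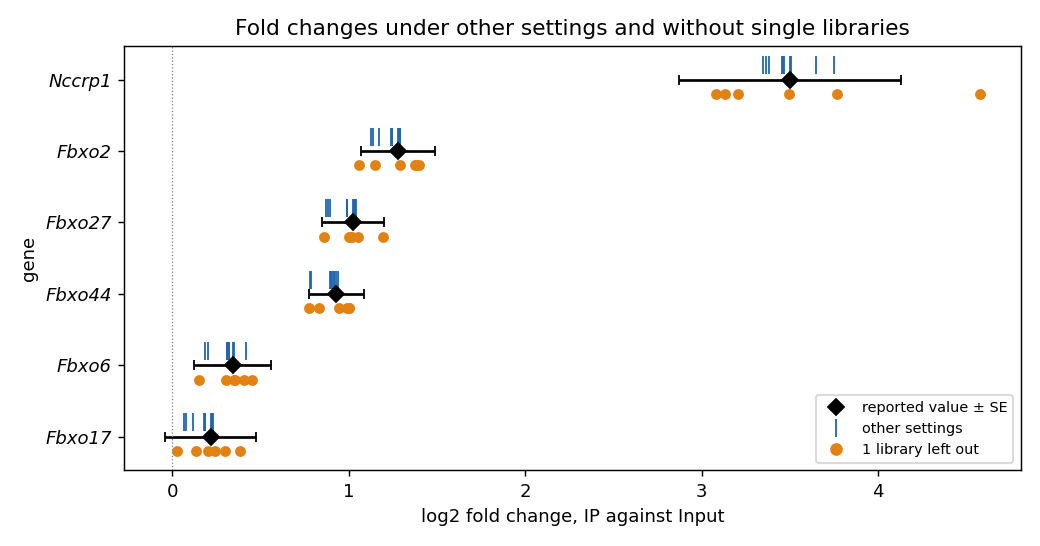
Log2 fold change of each gene as reported (diamonds, with SE), under 10 other settings (blue ticks) and with 1 of 6 libraries left out (orange points). The Nccrp1 value of 4.58 is the one without input replicate 1, and Fbxo17 stays near 0.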

How the data were processed

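RNA of 3 IP and 3 input libraries was compared, with groups and replicate numbers from the titles. The authors deposited raw read counts per gene symbol, made with STAR 2.0.0e and HTSeq on mm10, per the submitters' processing notes; the sources used here do not give the annotation, strand setting or counting mode. The unknown entry and 5 summary lines were left out: the former held at most 1 count per library. Genes were filtered with filterByExpr (minimum count 10, total 15), scaled by TMM and compared in R 4.3.3 with the robust quasi-likelihood F test of edgeR 4.0.16 (two-sided, group as the only term; Benjamini-Hochberg over 17197 genes, threshold 0.05). The SE is the log2 fold change over the square root of F. Members, gene lists and the rule for named genes (of each list, up to 3 called genes of highest abundance in the commoner direction and 2 in the other) were chosen with earlier results of these data known. One listed gene, Fam8a1, was not matched by symbol. Positions, lengths and coding sequences came from GENCODE M21, and their translations were compared by pairwise alignment with Biopython 1.88 and jointly with MAFFT 7.526. Same-numbered libraries carry the same lane in their labels, and their deviations from group means correlated at 0.155, 0.074 and 0.051. Those of IP and input libraries with different numbers correlated at -0.107 to 0.021, below each same-numbered pair. Alternatives used RLE, upper-quartile and library-total scaling, other filters, DESeq2 1.42.0, limma-voom (limma 3.58.1), a replicate block, a threshold of 0.01 and fewer libraries. On simulated data of 16837 genes the IP against input fit recovered 50.5% of 2-fold and 80.6% of 4-fold changes, and 8.51% of its calls were false. Only 99 genes were changed 2-fold and 98 genes 4-fold there, whereas 53.9% of genes were called in the real data. These rates therefore need not hold for the real comparison. One gene that the rule names is not reported here.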

Additional observations from a re-analysis of the deposited data

How the results depend on the processing

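Each of the 5 relatives kept its direction and its side of its threshold under the 16 alternatives run. For Nccrp1, chosen from this contrast, only values are given: leaving out 1 library moved it between 3.08 and 4.58 on the log2 scale, and the other 10 settings between 3.35 and 3.75. With the replicate block, Nccrp1 stood at 3.65 and Fbxo2 at 1.29, and no relative's call changed. Counts that moved were of short lists. For SCF genes, 1 was lower in place of 0 when scaled by upper quartiles or by library totals alone. For ER-associated degradation, 12 in place of 20 were higher at a threshold of 0.01. For N-glycan genes, 7 were higher with the replicate block and 0 without IP replicate 2 and input replicate 3 together, in place of 3; 1 was lower in that last setting and at a threshold of 0.01, in place of 3. Leaving out 1 library gave 1 to 8 higher and 1 to 3 lower. For reported Fbxo2 targets, 1 was higher with no low-count filter and with DESeq2 and 3 with the replicate block, in place of 0, and 2 were lower with upper-quartile scaling, library totals alone, DESeq2 or without IP replicate 2 and input replicate 3, and 3 with the replicate block, in place of 1. Leaving out 1 library gave 0 to 2 higher and 1 to 2 lower. The cause of these moves was not tested. Fits with fewer libraries filtered genes afresh. The planned comparison of residues that touch sugars was not run.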
